A study of Mus musculus with 17 samples.

Results

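Cadherins and protocadherins are calcium-dependent adhesion proteins of the cell surface. The genes described here are those whose symbol is Cdh or Pcdh followed by a digit, or starts with Pcdha, Pcdhb or Pcdhg, with pseudogene symbols left out. They made up 93 of 52636 genes in the single-cell table and 93 of 28692 genes in the spot table. All cells and sections came from wild-type mice, B6 per the labels, with no treatment. The cells were microdissected from acute slices of the anterior thalamic nuclei, relay nuclei of the limbic thalamus, and harvested by hand, so the data describe cells that survived dissociation and were picked. The sections, each 10 µm thick, were laid on Visium arrays, in which RNA is captured spot by spot and 1 spot can hold several cells. Posterior sections 2 and 6 and anterior section 5 were measured, and the animals behind the sections and the age of the mice are not given in the sources used here.

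In classical cadherins, the extracellular domains of cells that carry the same cadherin bind each other, and the intracellular tail holds β-catenin and p120-catenin, with α-catenin linking to actin. Type I cadherins, such as N-cadherin, are broadly expressed, while type II cadherins are known for patchy expression in brain nuclei and layers. Delta protocadherins sit as single genes in the genome and signal through the WAVE complex and other partners. Clustered protocadherins, encoded in adjoining alpha, beta and gamma arrays, are chosen in different combinations by single neurons and are known for self-recognition of neurites. In the thalamus, cadherins have long served as markers that set nuclei apart.

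Neurons were 877 cells (101, 317 and 459 in animals 1, 2 and 3) with at least 1000 genes with a count. Median counts per cell were 49798 in animal 1, 8845 in animal 2, the shallowest, and 50474 in animal 3. Levels are given as CPM, a gene's count divided by all gene counts of the sum and scaled to 1000000. Clustering without any member gave 4 neuron clusters. Cluster 1 (439 cells) was led by Car4, Ccdc141 and Npsr1, together with the smooth muscle genes Acta2, Myl9 and Myh11, and cluster 2 (212 cells) by Tnnt1, Foxp1 and Rreb1. Cluster 3 (184 cells) was led by Calb2 and Necab1, with the GABA neuron genes Gad2, Gad1 and Sst also among its leading genes, and cluster 4 (42 cells) by C1ql2 and Rspo3, with the endothelial gene Flt1. All 6 pan-neuronal markers had counts in each of these clusters, and of the 13 thalamic glutamatergic markers 1 was at 0 in cluster 4. The thalamic marker sum was 4068, 5288, 4013 and 2431 CPM in clusters 1 to 4. Another 27 cells carried oligodendrocyte markers and were set aside. The 7827 spots fell into 11 regions. Region 6, 656 spots led by Shox2, Tcf7l2 and Gbx2, had the highest sum of thalamic markers and is called the thalamic region. It divided into 5 subregions, led by Cnih3 (subregion 1), Oprk1 (2), Gda, with the hypothalamic genes Oxt and Avp (3), Tac2 and Pou4f1, known habenular genes (4), and C1ql2 and Rspo3 (5). Spots carry no anatomical names here, and no subregion is equated with a nucleus.

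The promoters of 4 members are shown because these genes were low together in neuron cluster 4 and in thalamic subregion 5, as described further on. Cdh13 was called lower in both as well, but it had no promoter entry and is not shown. Each runs from 250 bases before to 50 bases after a RefSeq transcript start (GRCm38.p6), 5′ to 3′ on the gene's strand: Cdh8 at chr8:99416422-99416721, minus strand; Pcdh7 at chr5:57717831-57718130, plus strand; Pcdh10 at chr3:45378148-45378447, plus strand; and Pcdh19 at chrX:133688944-133689243, minus strand. Capitals mark matches on either strand to the TATA box word TATAAA, the GC box word GGGCGG, the E-box word CAGCTG or the TCF/LEF core word CTTTGA.
Cdh8: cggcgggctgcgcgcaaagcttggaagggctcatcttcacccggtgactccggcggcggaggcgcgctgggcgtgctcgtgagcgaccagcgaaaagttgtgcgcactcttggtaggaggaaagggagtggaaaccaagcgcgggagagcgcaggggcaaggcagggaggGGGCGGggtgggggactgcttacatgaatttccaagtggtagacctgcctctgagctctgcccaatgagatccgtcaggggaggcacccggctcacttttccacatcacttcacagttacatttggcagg
Pcdh7: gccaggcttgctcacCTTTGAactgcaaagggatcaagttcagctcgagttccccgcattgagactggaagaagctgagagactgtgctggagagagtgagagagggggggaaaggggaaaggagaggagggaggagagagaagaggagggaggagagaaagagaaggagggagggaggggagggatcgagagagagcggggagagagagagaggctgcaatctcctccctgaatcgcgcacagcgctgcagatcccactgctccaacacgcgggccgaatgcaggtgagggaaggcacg
Pcdh10: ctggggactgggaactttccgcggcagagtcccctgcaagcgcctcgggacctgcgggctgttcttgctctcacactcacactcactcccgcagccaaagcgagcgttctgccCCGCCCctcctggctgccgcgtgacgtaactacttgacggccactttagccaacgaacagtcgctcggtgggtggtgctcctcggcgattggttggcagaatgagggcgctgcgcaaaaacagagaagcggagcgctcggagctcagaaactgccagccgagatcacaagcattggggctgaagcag
Pcdh19: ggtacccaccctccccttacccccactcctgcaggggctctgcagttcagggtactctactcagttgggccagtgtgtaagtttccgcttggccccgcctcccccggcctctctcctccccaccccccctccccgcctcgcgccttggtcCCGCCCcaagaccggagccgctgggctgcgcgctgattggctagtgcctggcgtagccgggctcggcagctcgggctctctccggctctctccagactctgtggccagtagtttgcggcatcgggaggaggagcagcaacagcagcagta
A GGGCGG match lay in the Cdh8, Pcdh10 and Pcdh19 windows, once each, and 35.7% of all 32851 promoters in the table hold that word. Pcdh7 had 1 match to CTTTGA, which 16% of promoters hold. No match to TATAAA, held by 13.6% of promoters, or to CAGCTG, held by 16.3%, lay in these windows. No matches overlapped. GC content was 62.3% for Cdh8, 59.3% for Pcdh7, 62.3% for Pcdh10 and 67.7% for Pcdh19, against a median of 52.7% over all promoters. These words were read only in these windows and describe letters, not binding.

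The family took 62443 counts in neurons, 0.165% of all gene counts, and 57690 counts in spots, 0.0988%. Counts are not divided by transcript length, so shares of counts do not rank the genes by expression. In neurons, delta-1 protocadherins (Pcdh1, Pcdh7, Pcdh9 and Pcdh11x) held 32.8% of the family's counts, type II cadherins 15.3%, type I cadherins 14.9% and delta-2 protocadherins 12.8%. The 58 clustered members together were divided into 3.34% for alpha, 11.6% for beta and 3.5% for gamma genes. In spots, the delta-2 share was 23.5% and the alpha share 0.255%. Alpha genes share their 3′ exons with each other, as do gamma genes, and how reads in those exons were assigned is not given in the sources used here, so their single values are uncertain. Of the 93 members in the single-cell table, 92 had a count in neurons, Pcdhga4 being the exception. Of the 93 in the spot table, 90 had a count in spots, all but Cdh16, Pcdha1 and Pcdhb1. The sets differ: Pcdhgc4 had no row in the spot table, and the symbols Pcdha11.1 and Pcdhga8.1 occurred only there. Enough counts for a test were present for 42 members in neurons, 38 across regions and 10 within the thalamic region. The low-count filter keeps a gene on its highest groups.

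A neuron thinned to 5000 counts carried a count of 3.98 ± 0.52 members (SD, n = 3 animals), out of 93. The unthinned value was 7.65 ± 1.81. Thinning left out 59 shallow neurons of animal 2 and 2 of animal 3. Pcdh9, a delta-1 protocadherin of neurons, was counted in 86.4% ± 7.1 of thinned neurons of cluster 1 and 52.1% ± 8.1 of cluster 2. Cdh2, which encodes N-cadherin, was counted in 51.5% ± 7.5 of cluster 1 neurons and 41.4% ± 10.5 of cluster 4 neurons. The 56 wells labelled ERCC, which entered no comparison, held 51 member counts of 79309 gene counts, or 0.0643%. The 16 blank wells held 0 member counts, but only 323 gene counts in all, too few to set a level.

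Members differed between the neuron clusters in both the type II cadherin and the delta protocadherin subfamilies. Counts were summed per animal and cluster and tested with edgeR's quasi-likelihood test with animal as a block, adjusted over all 11748 genes by the Benjamini-Hochberg method. Of 42 tested members 9 passed at 0.05 in the test over all clusters, or 21.4%, where 12.5% of all genes tested were called. They were 2 of 8 type II cadherins (Cdh8, Cdh22), 2 of 3 delta-1 protocadherins (Pcdh7, Pcdh9), 4 of 5 delta-2 protocadherins (Pcdh8, Pcdh10, Pcdh17, Pcdh19) and Pcdh20. Pcdh20 passed the low-count filter only through its cluster 3 sums, where it was high, so its call adds no support to this share. Of the 20 clustered members tested 0 passed in edgeR, 2 had an unadjusted p under 0.05, and DESeq2 called 1 of them, Pcdhb20. Of the 3 type I cadherins 0 passed with either tool, and 1 had an unadjusted p under 0.05. The adjusted p of Cdh13 was 0.051. Over all members DESeq2 called 12. The number of calls changed with the animal left out: 2 members passed without animal 2, 3 without animal 3, and 19 without animal 1. The shares of all genes called by DESeq2 and with an animal left out are not given here. These counts therefore cannot be read as a trait of the family. Cdh8 and Pcdh9 passed with each animal left out.

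Cdh8, a type II cadherin known to mark subsets of thalamic and cortical neurons, was present in clusters 1 to 3 and nearly missing from cluster 4. In cluster 1 it stood at 149.9, 120.4 and 121 CPM in animals 1, 2 and 3. In cluster 2 it stood at 137, 100.3 and 123, and in cluster 3 at 55.5, 136 and 92.5. In cluster 4 it was 0, 0 and 0.612. Clusters 1 to 3 overlapped, and every animal of cluster 4 lay below them all. Cluster 4 rests on 6, 9 and 27 cells of animals 1, 2 and 3, with 703501, 161375 and 3266276 gene counts. Only 2 of 4131152 counts of cluster 4 came from Cdh8, against 3901 of 33742281 in the other clusters. That is a 239-fold lower share, with an exact 95% interval of 66.1 to 1970 that covers counting error only. The fitted log2 fold change of cluster 4 against the others was -7.79 (SE 0.66, adjusted p = 6.27e-06), a size that rests on the fit's treatment of near-zero counts. Cluster 4 was lower in 3 of 3 animals, and the call held under each alternative tried. Clusters 1, 2 and 3 were each called higher for Cdh8, by log2 2.83, 2.84 and 2.12, because the mean of the others, taken on the log scale, includes cluster 4. The cluster 1 call was lost without animal 3 (adjusted p = 0.0579), and the cluster 3 call without animal 2 (0.237) and without animal 3 (0.249).

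Pcdh7 and Pcdh19 had a like pattern. Pcdh7, a delta-1 protocadherin also called BH-protocadherin, was counted at 0, 0 and 3.98 CPM in cluster 4 of animals 1, 2 and 3, and at 25.7 to 93.7 in the other clusters. Its log2 fold change in cluster 4 was -4.56 (SE 0.69, adjusted p = 0.000566), and 2 of 42 cells of that cluster held all of its 13 counts there. Pcdh19, an X-linked delta-2 protocadherin tied in humans to an epilepsy syndrome, was at 0, 0 and 11.6 CPM in cluster 4. In cluster 3 it was at 91.7, 96.4 and 102, in cluster 1 at 45.1, 39.2 and 45, and in cluster 2 at 96.4, 38.1 and 52.3. Cluster 4 lay below every other animal and cluster (log2 fold change -3.50, SE 0.73, adjusted p = 0.00554). Without animal 2 that call was lost, with an adjusted p of 0.0724, and the Pcdh7 call held with each animal left out.

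Pcdh10, a delta-2 protocadherin known as OL-protocadherin, was graded over the clusters. It stood at 116, 115 and 113 CPM in cluster 3. In cluster 2 it was at 47.7, 74.2 and 80.4, in cluster 1 at 31.4, 5.26 and 7.49, and in cluster 4 at 0, 12.4 and 8.27. Clusters 3 and 2 stood apart from the rest and from each other, and clusters 1 and 4 overlapped. Cluster 3 was higher than the others (log2 fold change 2.61, SE 0.54, adjusted p = 0.0251) and cluster 4 lower (-2.98, SE 0.81, adjusted p = 0.0261). Of the thinned neurons, 37.9% ± 5.83 of cluster 3 and 3.33% ± 1.85 of cluster 1 held a Pcdh10 count. Both calls were lost without animal 2 and without animal 3, with adjusted p up to 0.311 for cluster 3 and 0.108 for cluster 4.

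In cluster 3, 5 of the 42 members passed, all higher (Cdh8, Pcdh8, Pcdh10, Pcdh17 and Pcdh20), against 1.25% of all genes called higher there. Pcdh17, a delta-2 protocadherin, was at 177, 204 and 155 CPM in cluster 3 and at 51.7 to 100.3 in the other clusters (log2 fold change 1.23, SE 0.25, adjusted p = 0.022). Pcdh8, known as arcadlin, whose expression follows neuronal activity, was at 58.7, 36.7 and 22.5 in cluster 3 and at most 10.0 elsewhere (4.61, SE 1.02, adjusted p = 0.034). Pcdh20 was at 24.9, 6.79 and 8.48 in cluster 3, and its other sums reached 4.01 (5.73, SE 1.10, adjusted p = 0.0206), but 11 cells held its 102 counts there. The low-count filter let Pcdh20 in only through these cluster 3 sums. Its call therefore adds no support to the 5 members set beside 1.25%. Pcdh8, Pcdh17, Pcdh20 and Pcdh9 all lie on chromosome 14, and Pcdh20 and Pcdh9 are next to each other in the RefSeq order of protein-coding genes. Their patterns differed, since Pcdh9 was highest in cluster 1. Without animal 2 or without animal 3, 0 members passed in cluster 3, and without animal 1 there were 12, with no share of all genes given for these fits. The GABA neuron marker sum was 300 CPM in cluster 3 and 4.96 to 31.2 in the others. Over the 844 neurons with fewer than 3 markers of another cell type, Cdh8, Pcdh8 and Pcdh10 were still called in cluster 3, Pcdh17 was not, and Pcdh20 had too few counts to be tested.

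Cdh22, a type II cadherin, had the reverse of the Cdh8 pattern between clusters 1 and 4. It was at 0, 0 and 0.159 CPM in cluster 1 and at 8.53, 31.0 and 25.4 in cluster 4. In cluster 2 it was at 0, 6.02 and 24.4, and in cluster 3 at 16.1, 6.79 and 27.2, so clusters 2, 3 and 4 overlapped. Cluster 1 held 2 counts of Cdh22 in 17320097, against 458 in 20553336 in the rest, a 193-fold lower share (exact 95% interval 53.1 to 1600, counting error only). The fit gave cluster 1 a log2 fold change of -7.30 (SE 1.49, adjusted p = 0.0268) and cluster 4 one of 3.17 (SE 0.91, adjusted p = 0.0338). Both calls were lost without animal 2 or animal 3. For cluster 4, the mean of the others, taken on the log scale, includes cluster 1, where Cdh22 was nearly missing.

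Pcdh9 was highest in cluster 1. It stood at 677, 779 and 684 CPM in cluster 1 and at 503, 397 and 320.2 in cluster 4. Cluster 2 had 199, 307 and 266, and cluster 3 had 295, 232 and 265. Cluster 1 lay above all other sums (log2 fold change 1.21, SE 0.16, adjusted p = 0.00113), and clusters 2 and 3 overlapped. Cluster 2 was called lower (-0.60, SE 0.17, adjusted p = 0.038). The cluster 1 call was lost without animal 2, with an adjusted p of 0.0618, and the cluster 2 call without animal 2, without animal 3 and with split counts. The pericyte and smooth muscle marker sum was 251 CPM in cluster 1 and 3.79 to 7.99 in the others, and the cluster 1 call held without neurons carrying markers of another type. In cluster 1, 3 members were called in all (Cdh8, Pcdh9 and Cdh22), against 1.23% of all genes, and in cluster 2 there were 2 (Cdh8 higher, Pcdh9 lower), against 11.6%.

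In cluster 4, 6 of 42 members were called, against 13.2% of all genes, which is near the 14.3% of members. Cdh22 was higher than the mean of the others, though its values overlapped those of clusters 2 and 3. Cdh8, Pcdh7, Pcdh19, Pcdh10 and Cdh13 were lower. Cdh13, the membrane-anchored T-cadherin that lacks an intracellular tail, was at 42.6, 12.4 and 23.3 CPM in cluster 4 and at 47.6 to 118 elsewhere (-1.39, SE 0.37, adjusted p = 0.0237). Of the cluster's Cdh13 counts 99.1% came from 5 cells, and the call was lost without the low-count filter, with split counts and without neurons carrying markers of another type. It was also lost without animal 2 (adjusted p = 0.27) and without animal 3 (0.238). Cdh11, a type II cadherin, was at 58.3, 99.2 and 39.8 in cluster 4 and at 5.62 to 48.7 elsewhere, which did not pass (1.49, SE 0.53, adjusted p = 0.0816). The endothelial marker sum was 225 CPM in cluster 4 and 22.1 to 23.4 in the others, with none of the 6 markers at 0 in cluster 4. The Cdh8, Pcdh7, Pcdh19, Pcdh10 and Cdh22 calls held without the neurons that carried markers of another type.

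**Figure D1:**
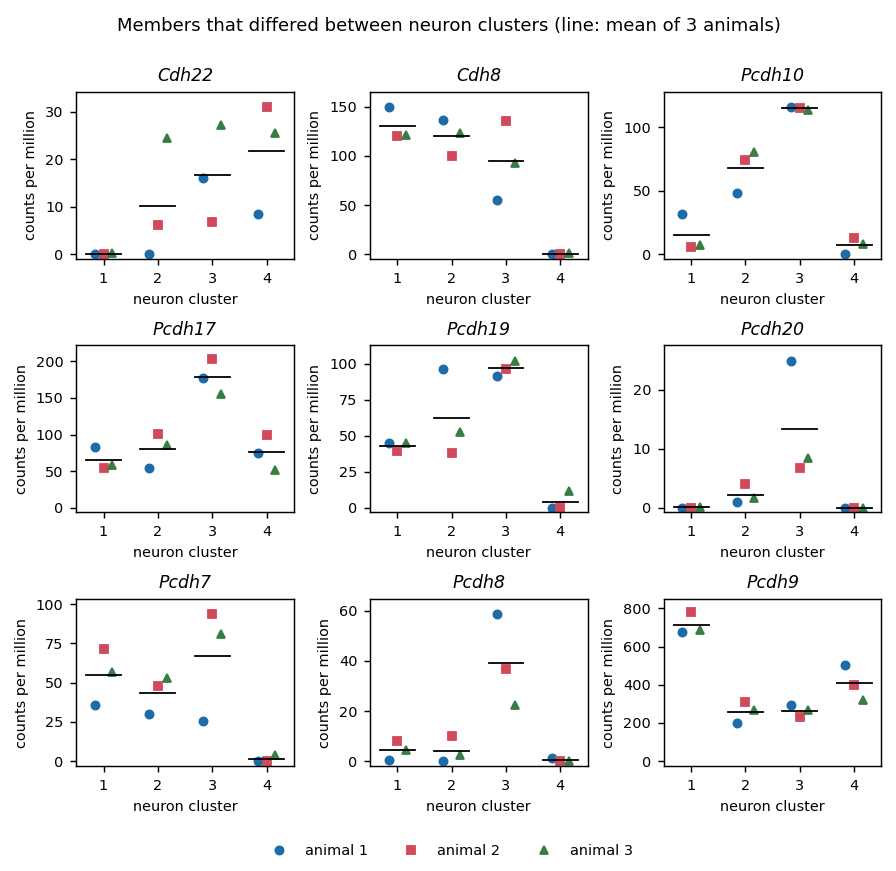
CPM (linear axes) of the 9 members that differed between neuron clusters, with 1 point per animal and a line at the mean of 3 animals. Cdh8, Pcdh7 and Pcdh19 sit near 0 in cluster 4, Pcdh10, Pcdh17, Pcdh8 and Pcdh20 are highest in cluster 3, and Pcdh9 is highest in cluster 1.

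The remaining well-counted members showed no difference that passed in neurons. Cdh2 stood at 279, 274 and 239.8 CPM in cluster 1 and at 130.1 to 246 elsewhere (adjusted p = 0.128 over all clusters). Cdh12, a type II cadherin, was at 74.5, 64.3 and 64.1 in cluster 1, while its cluster 4 values ran from 23.6 to 111 (adjusted p = 0.618). Among the clustered genes, Pcdhb17 was at 20.5 to 29.96 in cluster 1, and Pcdhgc4 was at 91, 31 and 3.67 in cluster 4, a spread that covers its values elsewhere. In data simulated for neuron cluster 1, 18 of 100 genes with a 2-fold change and 59 of 100 with a 4-fold change were recovered. Smaller differences were thus mostly not detectable in that cluster with these sums, and the other clusters were not simulated.

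Genes that cadherins work with were tested in the same fits. Of 50 tested genes on lists of catenins, actin linkers, proteases, kinases, regulators of the clustered genes and other cadherin superfamily members, 3 passed in the test over all clusters (Ptk2b, Wasf1 and Fat3), against 12.5% of all genes. Cluster 4 had 10 calls, 9 lower and 1 higher, against 13.2% of all genes called. The median log2 fold change of the 50 there was -0.91, beside -0.27 for all genes. Ptk2b, a calcium-activated kinase that binds gamma protocadherins, was at 98.8 ± 36.4 CPM in cluster 4, against 223 over the others (-1.22, SE 0.20, adjusted p = 0.000895). Wasf1, a WAVE subunit, was at 20.2 ± 12.2, against 85.4 (-1.94, SE 0.40, adjusted p = 0.00508), and Pkp4, a p120-type catenin, at 62.1 ± 37.7, against 152 (-1.41, SE 0.36, adjusted p = 0.0182). Of 9 tested catenins 3 were lower in cluster 4. Cluster 2 had 4 calls among the 50, against 11.6% of all genes called there. Among them was Celsr3, a seven-pass cadherin, which was higher (1.82, SE 0.46, adjusted p = 0.0201).

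Within the thalamic region, 7 of the 10 members with enough counts differed between subregions in the edgeR test with section as a block, against 23.9% of 5883 genes. They were Cdh8, Cdh22, Cdh13, Pcdh7, Pcdh9, Pcdh10 and Pcdh19, and the others were Cdh2, Pcdh1 and Pcdh17. The test over all neuron clusters and the test over all subregions both called 6 of these 10. Cdh13 passed in spots and had an adjusted p of 0.051 in neurons, and Pcdh17 passed in neurons and not in spots. Whether the assays differ was not tested. Without section 2 the Cdh8 and Pcdh7 calls over all subregions were lost (adjusted p = 0.105 and 0.0625), and Cdh22 had too few counts to be tested. Without section 5 the same pair was lost (0.0894 and 0.0568), and without section 6 Cdh13 and Cdh22 were (0.0902 and 0.0959). The Pcdh7 call was also lost with DESeq2. A spot mixes cells, so fewer cells of a kind and less RNA per cell cannot be told apart here.

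Subregion 5 held 43 spots. Counts there were few: in sections 2, 5 and 6, Cdh8 had 0, 1 and 3, Pcdh7 0, 2 and 2, and Pcdh19 1, 5 and 1. Cdh13 had 4, 1 and 1, and Pcdh10 had 9, 3 and 6. Cdh8 was at 0, 7.66 and 16.6 CPM in sections 2, 5 and 6 of subregion 5. It was at 49, 55.4 and 47.2 in subregion 1, and subregion 3 reached down to 15.7, so the ranges met (log2 fold change -2.11, SE 0.60, adjusted p = 0.00559). Pcdh7 was at 0, 15.3 and 11.1 in subregion 5 and at 20.4 to 72.5 in the other subregions (-2.38, SE 0.56, adjusted p = 0.00057). Pcdh10 was at 65.9, 23 and 33.2, below the 76.3 to 212 of the rest (-1.60, SE 0.30, adjusted p = 6.55e-06), and passed with each section left out. Pcdh19 was at 7.32, 38.3 and 5.54, and its section 5 value lay among those of other subregions (-1.73, SE 0.48, adjusted p = 0.00424). Cdh13 was at 29.3, 7.66 and 5.54 (-1.47, SE 0.53, adjusted p = 0.0433), a call that was lost in 4 of 5 alternatives, among them the fit without the replicate block (adjusted p = 0.0562), and without section 5 or 6. The Pcdh7 call was lost without section 2, and those of Cdh8 and Pcdh19 without section 6, with adjusted p of 0.104, 0.0557 and 0.13. All 5 called members were lower, against 6.39% of all genes called lower there.

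Cluster 4 and subregion 5 both had C1ql2, Rspo3 and Gng13 among their leading genes, none of them a member. The 10 members tested in both had the same sign in 10 of 10. Pcdh9 and Cdh22 were above 0 in both, though in spots their adjusted p was 0.229 and 0.541 respectively. The fold changes in spots were smaller than in neurons for Cdh8, Pcdh7, Pcdh19 and Pcdh10. The sign agreed in 9 of 10 without animal 1 and when the counts of each cell were split.

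**Figure D2:**
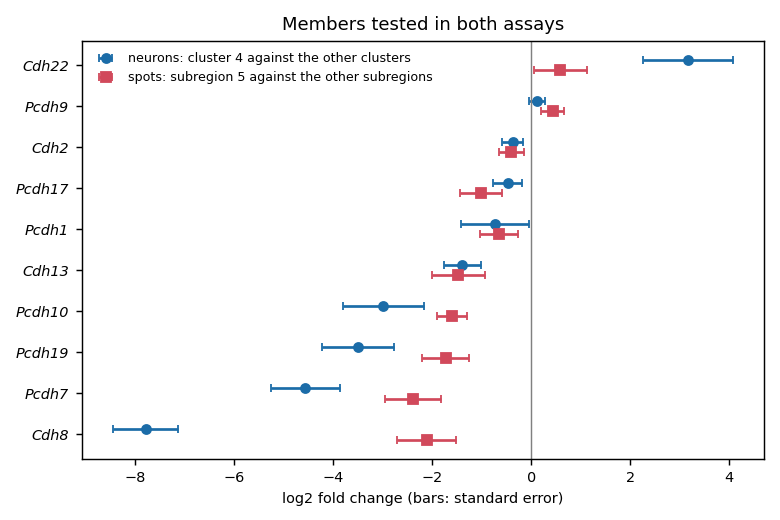
Log2 fold change with its standard error for the 10 members tested in both assays, for neuron cluster 4 against the other clusters (circles) and subregion 5 against the other subregions (squares). Cdh8, Pcdh7, Pcdh19, Pcdh10 and Cdh13 lie below 0 in both, and Cdh22 above 0.

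Pcdh10 and Cdh13 were highest in subregion 2. Pcdh10 was at 173, 200.4 and 212 CPM there, above every other subregion (log2 fold change 1.17, SE 0.17, adjusted p = 7.26e-10). Cdh13 was at 63.3, 51.2 and 67.5 in subregion 2 and at 24.6, 19.1 and 17.9 in subregion 3 (1.21 for subregion 2, SE 0.28, adjusted p = 0.000733). Pcdh19 was also higher there (0.85, SE 0.26, adjusted p = 0.0191) and Pcdh9 lower (-1.07, SE 0.21, adjusted p = 3.36e-05), making 4 calls, against 8.28% of all genes. The Pcdh10 call held with each section left out. That of Cdh13 was lost without section 6, that of Pcdh9 without section 2, and that of Pcdh19 without section 2 or 6, with DESeq2 and without the replicate block (adjusted p = 0.0825).

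Subregion 3 had 3 calls, all higher, against 6.44% of all genes. Cdh22 was at 47, 42.9 and 49.3 CPM, above all other subregions (1.31, SE 0.39, adjusted p = 0.0164). Pcdh19 was at 67.1, 105 and 53.8 (1.00, SE 0.27, adjusted p = 0.00691) and Cdh2 at 132, 186 and 121 (0.58, SE 0.18, adjusted p = 0.0266). DESeq2, which gave Cdh22 no adjusted p, called 0 members there. Without section 2, 0 passed in edgeR, and Cdh22 had too few counts to be tested. The Cdh22 call was lost without section 6. The Cdh2 call was lost with any 1 section left out and without the replicate block (adjusted p = 0.0711). It was also lost without the low-count filter and with members let into the clustering. The hypothalamic marker sum was 1573 CPM in subregion 3 and 172 to 540 in the rest, and its part in these values was not tested. Subregion 4 had 0 calls with edgeR and 0 with DESeq2, with 2 members at an unadjusted p under 0.05, against 1.56% of all genes called. It held 7 spots in section 5, where its values were the least certain.

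Pcdh9 was highest in subregion 1 of the thalamus, at 193, 185 and 156 CPM, and low in subregions 2 (40.1, 93.8 and 52.2) and 4 (76.8, 31.7 and 66.1). Subregion 1 was higher than the others (log2 fold change 1.02, SE 0.15, adjusted p = 1.26e-09), and the call held with each section left out. Cdh8 was higher (0.99, SE 0.28, adjusted p = 0.00635) and Cdh22 lower (-1.33, SE 0.44, adjusted p = 0.023), giving 3 calls, against 12.9% of all genes. The Cdh8 call was lost without section 2 or 5 and with DESeq2, and the Cdh22 call without section 5 or 6. Cluster 1 of the neurons had the same 3 members called in the same directions, and it shares the leading gene Itga4 with subregion 1. Of the 10 members tested in both, 8 had the same sign. The oligodendrocyte marker sum was 9817 CPM in subregion 1 and 4006, 4269, 7988 and 5113 in subregions 2 to 5, with none of the 10 markers at 0. Pcdh9 was also counted in oligodendrocyte-like cells of the plates, at 794 CPM, and in region 5, led by the myelin genes Mobp and Mbp, at 141 ± 36.8. The oligodendrocyte-like cells also held neuron markers, with a sum of 3385 CPM, so 794 CPM is not the level of oligodendrocytes alone. In neurons of cluster 1, where Pcdh9 was highest as well, the oligodendrocyte sum was 65.8 CPM. The part of oligodendrocytes in the Pcdh9 level of subregion 1 was not tested.

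**Figure D3:**
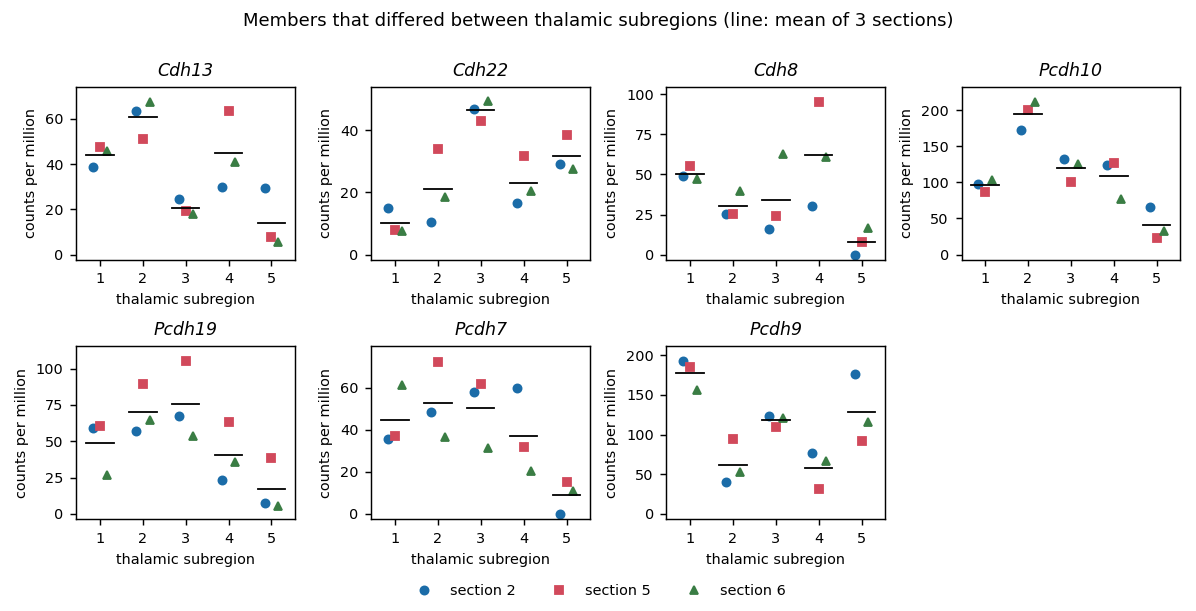
CPM (linear axes) of the 7 members that differed between thalamic subregions, with 1 point per section and a line at the mean of 3 sections. Subregion 5 is lowest for Cdh8, Pcdh7, Pcdh10, Pcdh19 and Cdh13, Pcdh10 is highest in subregion 2, and Pcdh9 is highest in subregion 1.

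Among the partner genes, 5 of 36 tested differed between subregions, against 23.9% of all genes. Ptk2b was higher in subregion 1, at 129 ± 21.2 CPM against 73.6 (0.86, SE 0.16, adjusted p = 9.14e-06). In subregion 5 it was higher too (0.78, SE 0.24, adjusted p = 0.0129), where cluster 4 had been lower. Pkp4 was lower in subregion 5, at 78.6 ± 16.5 against 182 (-1.13, SE 0.23, adjusted p = 5.39e-05), the direction it had in cluster 4. Fyn, a kinase that binds protocadherin alpha proteins, was lower there as well (-0.97, SE 0.27, adjusted p = 0.00542).

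Against the other 10 regions, the thalamic region had 12 of 38 members called, 7 higher and 5 lower, where 27.3% of 12855 genes were called (15.5% higher and 11.8% lower), so the members' share of 31.6% lay near that of all genes. Cdh8 was at 30.05, 36.5 and 46.2 CPM in sections 2, 5 and 6 of the thalamic region, and its mean was 16.6 over the others (1.20, SE 0.15, adjusted p = 3.74e-09). Its thalamic mean of 37.6 was the highest of the 11 regions, followed by region 2 (28.9 ± 2.09, led by the striatal genes Adora2a and Penk) and region 11 (28.1 ± 7.92, led by Pvalb and Six3), whose section values overlapped with it. Pcdh19 was at 51.7, 74.1 and 36.2, against 32.2 (0.87, SE 0.15, adjusted p = 4.20e-06), but region 9, led by Oxt and Avp, was higher at 89.8. Pcdh17 (0.60), Pcdh9 (0.49), Cdh2 (0.45), Cdh12 (0.99) and Pcdhb9 (0.70) were the others called higher, with adjusted p from 1.13e-05 for Pcdh9 to 0.0359 for Cdh12. Cdh12 was higher in 2 of 3 sections only, and its call was lost without section 2 or section 6 and without the replicate block (adjusted p = 0.0686). The Pcdh17 call was lost without section 5, and the Pcdhb9 call without section 5 or 6.

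Pcdh7 was low, at 44.8, 47.7 and 42.7 CPM in the thalamic region, and at 186 ± 3.65 in region 4, led by the cortical gene Lamp5 (thalamus against the rest -0.99, SE 0.13, adjusted p = 6.05e-09). Cdh13 was at 39.4, 37.5 and 41.5, against 183 ± 23.6 in region 11 (-0.64, SE 0.12, adjusted p = 1.15e-05). Cdh9, a type II cadherin known from hippocampal synapses, was at 4.43, 0 and 0.585, the lowest mean of the 11 regions, and at 32.2 ± 8.7 in region 2 (-2.04, SE 0.70, adjusted p = 0.0338). Pcdh11x (-0.74) and Pcdh8 (-0.55) were lower with adjusted p of 0.0158 and 0.0391. The Pcdh8 call was lost with DESeq2, without the replicate block (adjusted p = 0.0742) and with each section left out, and those of Cdh9 and Pcdh11x without section 2 or 5. With members let into the clustering, the Pcdh8 and Pcdh11x calls were lost as well. Cadherins of other tissue kinds lay elsewhere: Cdh5, or VE-cadherin of endothelium, was highest in region 8, led by the meningeal genes Fmod and Mgp, at 28.4 ± 10.3, and Cdh3 in the Ttr-rich region 10 at 20.4 ± 5.96. Of 57 tested partner genes 21 were called in the thalamic region, 13 higher and 8 lower, against 27.3% of all genes. Of 9 tested catenins 7 were higher and 0 lower, Ctnnb1, or β-catenin, by 0.85 (SE 0.06, adjusted p = 1.19e-17). Of 12 tested actin linkers and WAVE genes 0 were higher and 4 lower, among them Actn1 (-1.25, SE 0.14, adjusted p = 7.03e-11).

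**Figure D4:**
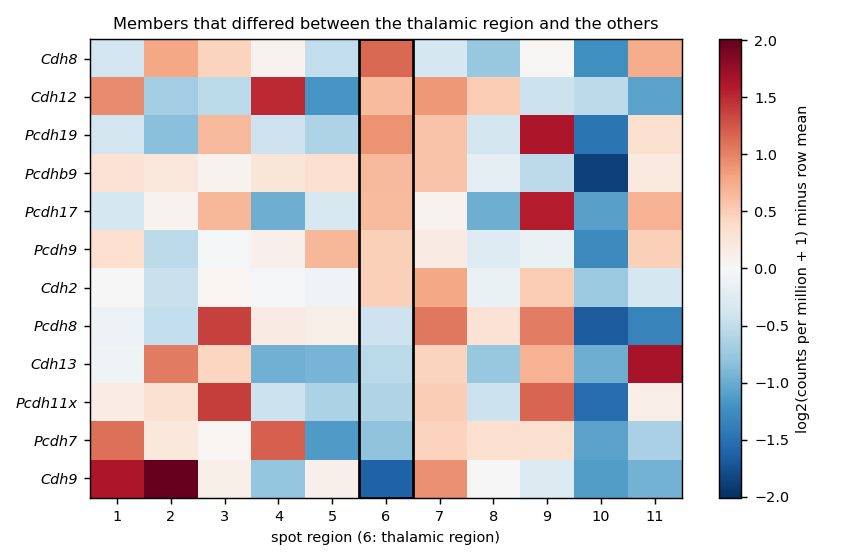
Mean log2(CPM + 1) of 3 sections minus the row mean, for the 12 members called between the thalamic region (column 6, outlined) and the other regions, in all 11 regions. Red is above and blue below the mean of a row. Cdh8 is highest in column 6, and Cdh9 is lowest there.

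The anterior section was set beside both posterior sections without a test, since it has no replicate. Of the 18 members with at least 50 counts in thalamic spots, 0 differed at least 2-fold in 1 direction from both posterior sections, where 0.876% of 9476 genes did. Pcdh19 stood at 74.1 CPM in the anterior section (exact Poisson 95% interval 58.1 to 93.2) and at 51.7 and 36.2 in posterior sections 2 and 6. Pcdh17 stood at 71 (55.4 to 89.8) and at 38.4 and 41.5. Pcdh9 was at 129.9, against 124 and 117. The intervals cover counting error only, and section and position cannot be told apart.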

How the data were processed

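The authors deposited raw counts per gene and well for 14 plates, with 52636 genes, and raw counts per gene and spot for 3 Visium sections, with 28692 genes. The deposited well table and spot list give, per the file headers, the animal number of each well and the section of each spot (other unit). Per the submitters' processing notes, Space Ranger, Seurat and the builds NCBIM37 and mm10 were used. The aligner, the counting step and whether reads or molecules were counted are not given in the sources used here. No label ties the 14 single-cell samples to plates, so animals, as numbered per well, were the replicates. Nothing says whether sections came from separate animals, so p-values over sections may measure technical spread.

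Wells with a cell and at least 1000 genes were kept, except 8 that carried the dissection of another animal, which left 904 of 1216. No doublet caller was run: cells were picked by hand. The 7827 spots carry 4182 distinct barcodes, of which 2393 occur in at least 2 sections, as array positions do. Cells and spots were scaled to 10000 counts and clustered by the Leiden method (scanpy 1.11.5, 2000 variable genes, 30 components, 15 neighbours, resolution 0.5) with all members left out. Members therefore did not define the clusters, though genes that vary with them did.

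Sums over the cells of an animal and cluster, or the spots of a section and region, needed at least 5 of either. The main test was edgeR 4.0.16 under R 4.3.3, with TMM scaling, filterByExpr, the replicate as a block and Benjamini-Hochberg adjustment over all genes, and again in DESeq2 1.42.0. The block follows from sums that share an animal or a section: residuals of such sums correlated with a median of 0.08, and of other sums with -0.0517, and for subregions these were 0.173 and -0.0835. Tested on simulated data, the fit recovered 89 of 100 genes with a 2-fold change for subregion 1 and 88 of 100 for the thalamic region. Members and lists were chosen with earlier results of these data known. Named are, per comparison, up to 12 members in each direction that passed, the 12 members with the most counts in each assay, 1 per subfamily, and up to 4 partner genes. Cdh11, Cdh3, Cdh5 and the Pcdh9 values outside neurons were picked after their values were seen. Symbols were matched to RefSeq tables of GRCm38.p6, where 22 of 94 distinct symbols had a promoter entry. Some leading genes of clusters and regions are not reported here.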

Additional observations from a re-analysis of the deposited data

Results flagged for a closer look

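The 27 oligodendrocyte-like cells of the plates entered no comparison, and members were counted in them. Their neuron marker sum was 3385 CPM, against 6181 to 9843 in the neuron clusters, and their thalamic marker sum was 2132. The part of neuronal RNA in their member levels was not tested. In the 56 wells labelled ERCC, Pcdh9 had 4 counts and Pcdh15 had 1 of 79309 gene counts, or 50.4 and 12.6 CPM. The blank wells held 323 gene counts in all, too few to set a level. Pcdh9 stood at 794 CPM in these cells, with a count in 25 of 27, and at 469.5 over all neurons. By animal the values were 351 (2 cells), 1089 (11 cells) and 846 (14 cells). Pcdh15, a protocadherin of hair cell tip links, stood at 53.9 CPM, with a count in 6 of 27 cells, and at 22.6 over neurons. Fewer than 3 animals gave 5 such cells, so no test was made.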

How the results depend on the processing

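Among the 59 member calls named, those for a single cluster, subregion or region kept their direction in every alternative that tested them. Calls over all clusters or over all subregions have no direction. Of the 59, 46 passed under each alternative that left out no replicate. Only 17 passed with each animal or section left out as well, 5 of 25 for neurons, 6 of 22 for subregions and 6 of 12 for the thalamic region. With an animal left out, the members called between neuron clusters ranged from 2 to 19, and from 1 to 9 in clusters 1 and 2, from 0 to 12 in cluster 3 and from 3 to 12 in cluster 4. With a section left out they ranged from 4 to 5 between subregions, 1 to 2 in subregion 1, 2 to 4 in subregion 2, 0 to 2 in subregion 3, 2 to 4 in subregion 5 and 7 to 9 for the thalamic region. The larger counts were those without animal 1, and the cause was not tested. DESeq2 called 5, 9, 8 and 11 members in clusters 1 to 4 and 0 in subregion 3. Without the low-count filter 5 passed in cluster 2 and 10 in cluster 3, with split counts 7 in cluster 2, and with members let into the clustering 1 in subregion 3. Without the replicate block, 9 members passed between neuron clusters, 7 between subregions and 10 for the thalamic region, and no count moved by over 1.5 times, though 5 of the named calls were lost. The shares of all genes called in these alternative fits are not given here, so a change in members called may be shared by all genes. Unthinned neurons carried 7.65 members each, since deeper cells show more genes. Scaling to whole sections left the anterior comparison at 0 members, against 1.51% of all genes.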
